A study of Mus musculus with 24 samples.

Results

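Deubiquitinases are proteases that take ubiquitin off proteins or cut chains of it. Their transcripts were followed in mouse peritoneal macrophages treated with ONX-0914, an inhibitor of the immunoproteasome, during polarization. The members were the protein-coding genes with a symbol starting with Usp and a digit, Otud or Uch, plus Otub1, Otulin, Cyld, Bap1, Brcc3 and Stambp, without Usp18 and Uchl1. Of 54532 features in the count table, 72 met this rule, 66 had at least 1 count, and 59 passed the filter on low counts and were tested. Usp17la, Usp17lb, Usp17le, Usp26, Usp29 and Usp9y had no count in any library. Usp43 had 83 counts over all libraries, and Otud7a, Usp51, Usp44, Otud6a, Usp17ld and Usp17lc had 39 or fewer each.

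The 24 libraries of polyA RNA fall into 6 groups of 4. M1+ONX cells received LPS, IFN-γ and ONX-0914, against M1 cells with LPS and IFN-γ alone. M2+ONX cells received IL-4 and ONX-0914, against M2 cells with IL-4 alone. M0+ONX cells received ONX-0914 alone, against M0 cells, labelled as controls. Each library pooled peritoneal macrophages of 2 to 3 mice to 50000 cells. The labels used here give no strain, sex, age, dose or treatment time, and whether animals were shared between groups is not stated. A bulk level cannot tell fewer cells of a type from less RNA per cell.

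Library totals ran from 18230924 to 22882972 counts. All 10 macrophage markers examined were counted in every group, and their summed level was 9320 to 9790 CPM, counts scaled to library size with TMM factors, in M1+ONX, 11800 to 14400 in M1, 10100 to 11300 in M2+ONX, 12500 to 13800 in M2, 10600 to 11700 in M0+ONX and 12600 to 14700 in M0 libraries. Lyz2 made up most of this sum. It averaged 6190 CPM in M1+ONX against 8590 in M1, 7740 in M2+ONX against 10100 in M2, and 8340 in M0+ONX against 10500 in M0 libraries. The markers did not move together: Csf1r and Mertk also had a lower mean with ONX-0914 in each state, and Cd14 and Icam2 a higher one. B cell markers (11 of 11 counted) summed to 39.7 to 45.1 CPM in M1+ONX against 78.6 to 90.7 in M1, 60.2 to 67.8 in M2+ONX against 114 to 123 in M2, and 61.1 to 67.0 in M0+ONX against 107 to 116 in M0 libraries. Most of that sum was Cd22, which averaged 36.9 CPM in M1+ONX against 62.2 in M1, 60.0 in M2+ONX against 101 in M2, and 55.3 in M0+ONX against 85.6 in M0 libraries. The next most abundant, Ighm, averaged 3.16 CPM in M1+ONX against 13.4 in M1, 2.43 in M2+ONX against 9.21 in M2, and 5.44 in M0+ONX against 15.4 in M0 libraries, a larger ratio than that of Cd22. All 11 B cell markers had a lower mean with ONX-0914 in each state. Both sums were lower in every library with the inhibitor than in any without it in the same state, and their part in the changes below was not tested. Markers of T and NK cells, dendritic cells and mast cells summed to at most 10 CPM in any library, and neutrophil markers to at most 12.1 CPM, with S100a9, Ly6g, Retnlg and Ncr1 at no count. M1 replicate 2 stood apart, with 0.3% mitochondrial counts against 1.07 to 1.14% in the other M1 libraries, and with the lowest member sum of its group. Some results that rest on M1 libraries are given with and without it, and others with all libraries only.

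Ubiquitin chains send proteins to the proteasome, or switch signalling, trafficking and chromatin states, depending on how the chain is linked. Deubiquitinases trim or remove these chains. Some sit on the proteasome and recycle ubiquitin as substrates enter, and others restrain or sharpen Toll-like receptor and NF-κB signalling in macrophages. Usp6nl meets the symbol rule but encodes a GTPase-activating protein. Usp39 has been classed as lacking deubiquitinase activity, as Usp53 and Usp54 were in older classifications.

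Promoters are shown for members that moved in opposite directions. Usp20 and Usp3 were higher with ONX-0914 in all 3 states. Usp25 and Usp12 were lower with ONX-0914 in all 3 states and were the members with the largest rise in M1 cells. The windows are RefSeq's on GRCm38.p6, from 250 bases before to 50 bases after the annotated start, written 5′ to 3′ on the gene's strand. They lie at chr2:30982029-30982328 (plus strand) for Usp20, chr9:66593066-66593365 (minus) for Usp3, chr16:77013819-77014118 (plus) for Usp25 and chr5:146794907-146795206 (minus) for Usp12. Capitals mark the core of the antioxidant response element (ARE, TGACNNNGC) in Usp20 and Usp3 and the κB core in Usp25 and Usp12.
Usp20: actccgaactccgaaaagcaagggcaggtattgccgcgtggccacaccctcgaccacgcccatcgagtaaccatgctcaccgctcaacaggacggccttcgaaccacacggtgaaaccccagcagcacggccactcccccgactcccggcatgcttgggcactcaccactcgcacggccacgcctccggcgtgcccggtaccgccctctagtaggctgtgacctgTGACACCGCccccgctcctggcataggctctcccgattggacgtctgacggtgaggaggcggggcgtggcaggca
Usp3: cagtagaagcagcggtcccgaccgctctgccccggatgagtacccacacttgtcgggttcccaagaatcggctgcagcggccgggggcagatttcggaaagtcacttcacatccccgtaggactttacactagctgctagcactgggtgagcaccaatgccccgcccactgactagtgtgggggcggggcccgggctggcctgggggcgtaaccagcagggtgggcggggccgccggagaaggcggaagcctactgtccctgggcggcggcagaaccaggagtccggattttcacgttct
Usp25: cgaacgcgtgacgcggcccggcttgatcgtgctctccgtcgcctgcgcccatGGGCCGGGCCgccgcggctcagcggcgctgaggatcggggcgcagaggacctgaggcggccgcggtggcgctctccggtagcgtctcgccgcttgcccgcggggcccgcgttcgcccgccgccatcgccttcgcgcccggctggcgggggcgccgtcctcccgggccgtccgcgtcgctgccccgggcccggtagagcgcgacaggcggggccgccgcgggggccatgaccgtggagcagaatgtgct
Usp12: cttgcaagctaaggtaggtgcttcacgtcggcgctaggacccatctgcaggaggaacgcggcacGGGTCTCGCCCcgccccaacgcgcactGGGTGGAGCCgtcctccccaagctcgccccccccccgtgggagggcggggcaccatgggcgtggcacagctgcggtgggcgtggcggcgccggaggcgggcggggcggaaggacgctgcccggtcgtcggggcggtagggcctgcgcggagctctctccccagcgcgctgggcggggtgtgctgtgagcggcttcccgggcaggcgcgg

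The ARE core began at position -25 in Usp20 and was not found in the Usp3 window. κB cores, not capitalized there, began at -211, -141, -122 and -54 in Usp20 and at -69, -68, -46 and -28 in Usp3. Usp25 held an ARE core at -242 and a κB core at -198. Usp12 held κB cores at -186, -185 and -159, of which the first 2 overlap. Both strands were searched. A window was at hand for 58 of the 72 members, and the ARE core was in 28.3% of the 60 member windows and 12.4% of all 32851 windows. For the κB core the shares were 65.0% and 50.8%, for the interferon-stimulated response element core 5.0% and 3.44%, and for the E-box (CACGTG) 13.3% and 7.15%. Each share was thus higher in member windows, but the windows were not matched for base composition or expression. For the interferon-stimulated response element the share rested on 3 windows, of Usp49, Usp17ld (4 counts in all) and Usp17lc (1 count). Among members higher with ONX-0914 in all 3 states, 1 of 5 with a window held an ARE core and all 5 a κB core. Among those lower in all 3 states, 1 of 3 held an ARE core and all 3 a κB core. A match of letters is not a binding site.

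Expressed per kilobase of annotated exon, the levels averaged over all libraries were highest for Usp25 (37.8 RPKM), Usp8 (33.4 RPKM) and Usp5 (33.3 RPKM), followed by Otub1 (27.0 RPKM) and Usp12 (24.8 RPKM). Usp25 had 68.2 RPKM in M1+ONX and 90.0 RPKM in M1 libraries. In M0 libraries it had 18.4 RPKM, below Usp8 (30.6 RPKM) and Usp5 (26.2 RPKM). Usp25 trims K48 and K63 chains in Toll-like receptor signalling, Usp8 acts on endosomal cargo, and Usp5 takes apart unanchored chains. Summed over members, TMM-scaled CPM were 3869 to 4006 in M1+ONX and 3480 to 4059 in M1 libraries. The sums were 2881 to 2961 in M2+ONX and 2572 to 2703 in M2 libraries, and 2694 to 2757 in M0+ONX and 2566 to 2744 in M0 libraries. The member sum in M2+ONX libraries was above that of every M2 library, while the ranges of M1+ONX and M1 overlapped.

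With ONX-0914, 7 members were higher in all 3 states and 3 were lower in all 3. The 7 were Usp14, Usp5, Usp3, Usp7, Usp19, Usp20 and Usp47, which is 11.9% of tested members, beside 5.62% of all 14692 genes tested. The 3 were Usp12, Usp25 and Usp46, or 5.08% of members beside 6.87% of all genes. Without M1 replicate 2, Usp31 was also lower in all 3 states, Usp38 joined those higher in all 3, and Usp7 left them. Calls rest on edgeR's quasi-likelihood test with Benjamini-Hochberg adjustment over all genes tested and a threshold of 0.05, and adjusted p come from that fit unless another is named. Changes are log2 ± SE, and levels are mean ± SD, n = 4 libraries per group.

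In M1 cells, 16 members were higher with ONX-0914 and 10 lower, beside 16.6% of all genes tested that were higher and 27.7% that were lower (44.3% in either direction). Without M1 replicate 2 the counts were 16 and 14. In M2 cells 21 were higher and 9 lower, beside 17.6% and 18.8% of all genes (36.4% in either direction). In M0 cells 7 were higher and 7 lower, beside 9.54% and 11.4% of all genes (21% in either direction). The lower count in M0 cells was 4 without M0 replicate 3 and 4 without M0+ONX replicate 3. The members' median change was 0.00 in M1, 0.09 in M2 and 0.03 in M0 cells, beside -0.08, -0.00 and -0.00 over all genes. Of the 59 members, 21 were called with ONX-0914 in no state, beside 6189 of all 14692 genes.

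**Figure D1:**
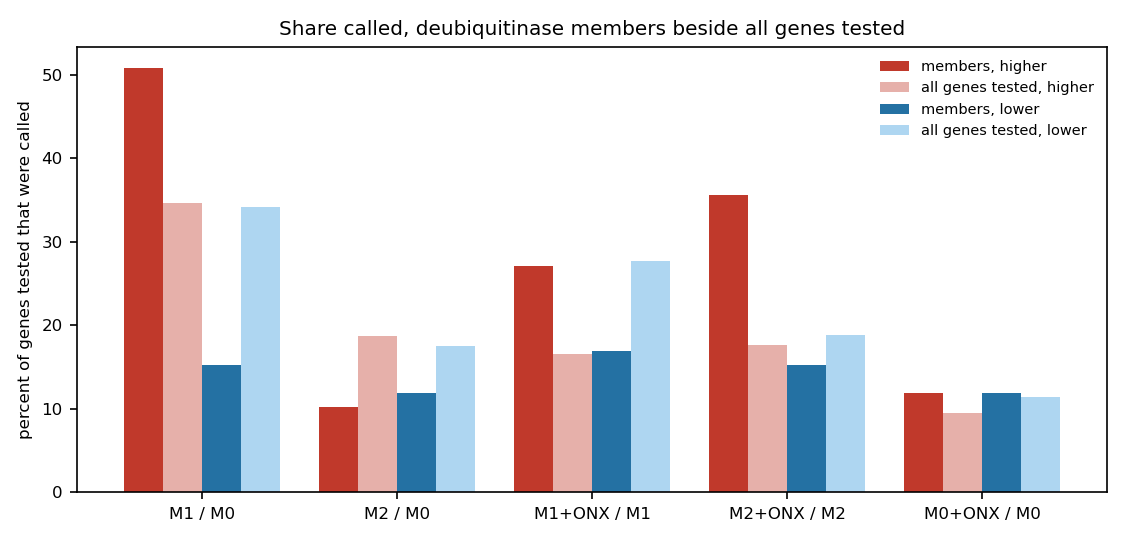
Percent of genes called higher (red) or lower (blue) at adjusted p under 0.05 in each of 5 comparisons, for the 59 tested members (dark bars) and all 14692 genes tested (pale bars). In M2 cells with ONX-0914 the share of members higher, 35.6%, stands beside 17.6% of all genes, and in M1 against M0 cells 50.8% stands beside 34.6%.

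Counts by role are given beside the shares of all genes, and no role group was tested as a set. Of 6 tested members linked to the proteasome and free ubiquitin chains, 2 rose with ONX-0914 in M1, M2 and M0 cells alike, and 1 fell in M2 cells. Of all genes tested, 16.6% rose and 27.7% fell in M1, 17.6% and 18.8% in M2, and 9.54% and 11.4% in M0 cells. Usp14, which binds the proteasome's regulatory particle and trims chains on arriving substrates, stood at 197, 195, 198 and 197 CPM in M1+ONX libraries, against 90.0, 33.4, 81.2 and 76.8 CPM in M1 libraries. In the M2 state it stood at 158, 148, 154 and 158 CPM with ONX-0914, against 108, 106, 101 and 102 CPM without. M0+ONX libraries had 113, 107, 107 and 107 CPM, against 80.1, 78.6, 83.4 and 83.1 CPM in M0 libraries. The groups did not overlap in any of the 3 states, as held for 36% of all genes tested in M1, 39.2% in M2 and 26.9% in M0 cells, and M1 replicate 2 was far below the other M1 libraries. Usp14 was 2.79-fold higher in M1+ONX cells (log2 change 1.48 ± 0.15, adjusted p = 4.40e-09). Without M1 replicate 2 the change was 1.25 (adjusted p = 3.58e-20). It was 1.48-fold higher in M2+ONX (log2 change 0.57 ± 0.14, adjusted p = 0.00255) and 1.33-fold higher in M0+ONX cells (log2 change 0.41 ± 0.14, adjusted p = 0.042). The M0 call was lost with DESeq2 (adjusted p = 0.078) and when any 1 of 12 libraries was left out, among them all 8 M0+ONX and M0 libraries, with adjusted p up to 0.0942, but the change was 0.41 with adjusted p = 5.06e-09 without M1 replicate 2.

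Usp14 shares 26.0% of its exonic bases with Thoc1, a gene on the opposite strand, and whether counting used strand is not stated. Thoc1 had 41.3 ± 0.334 CPM in M1+ONX and 26.5 ± 8.69 CPM in M1 libraries (log2 change 0.63 ± 0.14, adjusted p = 0.000449), and its change was 0.15 ± 0.13 in M2 (adjusted p = 0.406) and 0.19 ± 0.13 in M0 cells (adjusted p = 0.353). Uchl5, the other member known to bind the proteasome, was called in none of the 5 comparisons. It averaged 22.4 ± 2.13 CPM in M1+ONX and 22.1 ± 5.23 CPM in M1 libraries, 25.9 ± 2.26 in M2+ONX and 26.9 ± 1.38 in M2, and 24.4 ± 1.00 in M0+ONX and 24.7 ± 1.64 in M0 libraries.

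Usp5, which disassembles free ubiquitin chains, had 213, 208, 212 and 208 CPM in M1+ONX libraries, against 126, 161, 135 and 121 CPM in M1 libraries. The groups did not overlap, nor did they in the other states. Its rise was 1.55-fold in M1 (log2 change 0.63 ± 0.06, adjusted p = 3.12e-09), 1.51-fold in M2 (log2 change 0.60 ± 0.06, adjusted p = 1.11e-08) and 1.30-fold in M0 cells (log2 change 0.37 ± 0.06, adjusted p = 5.50e-05). Usp13, its close relative, changed by 0.38 ± 0.24, 0.60 ± 0.24 and 0.42 ± 0.24 in M1, M2 and M0 cells and was not called (adjusted p = 0.208, 0.0566 and 0.239). Uchl3, which processes ubiquitin and NEDD8 precursors, fell with ONX-0914 in M2 cells, at 7.49, 7.13, 5.91 and 6.30 CPM in M2+ONX and 8.12, 9.80, 7.93 and 10.2 CPM in M2 libraries (log2 change -0.42 ± 0.13, adjusted p = 0.0134). That call was lost without M2 replicate 2 (adjusted p = 0.0504), M2 replicate 4 (adjusted p = 0.0563) or M2+ONX replicate 3 (adjusted p = 0.0516). Uchl3 and Uchl4 are near-identical in sequence, so their counts are uncertain.

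**Figure D2:**
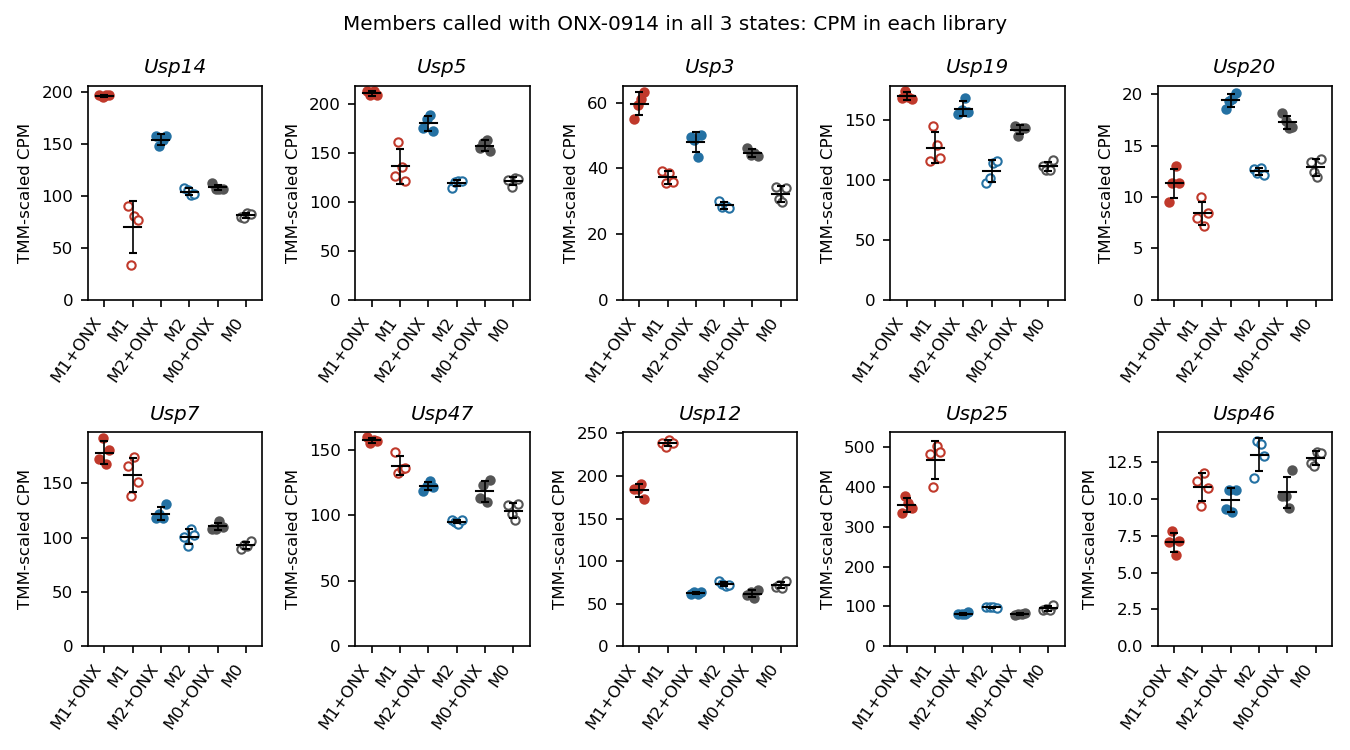
TMM-scaled CPM in each of the 24 libraries for the 10 members called with ONX-0914 in all 3 states (filled points, with ONX-0914; open points, without; line and bar, mean ± SD, n = 4). Usp14 reaches 197 CPM in M1+ONX libraries, while Usp12 and Usp25 are lower with the inhibitor yet stay far above their M0 and M2 levels in both M1 groups.

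Of 9 chromatin members tested, 5 rose and 1 fell in M1 cells, 5 rose and 1 fell in M2 cells, and 2 rose and 1 fell in M0 cells. The shares of all genes tested were 16.6% higher and 27.7% lower in M1, 17.6% and 18.8% in M2, and 9.54% and 11.4% in M0. Usp3, which removes ubiquitin from histones, had 55.1, 59.2, 61.1 and 63.3 CPM in M1+ONX libraries and 39.2, 35.4, 38.6 and 35.9 CPM in M1 libraries. Its groups did not overlap in any state, and it rose 1.60-fold in M1 (log2 change 0.68 ± 0.06, adjusted p = 5.75e-10), 1.67-fold in M2 (log2 change 0.74 ± 0.06, adjusted p = 1.62e-10) and 1.39-fold in M0 cells (log2 change 0.47 ± 0.06, adjusted p = 1.48e-06). Usp7, which stabilizes MDM2 and other nuclear substrates, rose by 0.18 ± 0.06 in M1, 0.28 ± 0.06 in M2 and 0.25 ± 0.06 in M0 cells (adjusted p = 0.0245, 0.00104 and 0.00551). Its M1+ONX and M1 libraries overlapped, and the M1 call was lost without M1 replicate 2 (adjusted p = 0.079), M1 replicate 4 (adjusted p = 0.0665), M1+ONX replicate 2 (adjusted p = 0.099) or M1+ONX replicate 4 (adjusted p = 0.0522).

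The chromatin member that fell in M1 and M2 cells was Usp22, the ubiquitin protease of the SAGA coactivator complex. It stood at 36.7, 34.6, 33.5 and 32.0 CPM in M1+ONX libraries, against 46.4, 60.0, 62.4 and 47.0 CPM in M1 libraries. M2+ONX libraries had 27.9, 32.3, 32.0 and 30.7 CPM, against 39.7, 38.8, 41.7 and 37.4 CPM in M2 libraries. Neither pair overlapped. Usp22 was 1.58-fold lower in M1+ONX than in M1 cells (log2 change -0.66 ± 0.08, adjusted p = 2.41e-07) and 1.28-fold lower in M2+ONX than in M2 cells (log2 change -0.36 ± 0.08, adjusted p = 0.00101), while in M0 cells the change was -0.07 ± 0.08 (adjusted p = 0.618). The chromatin-list member that fell in M0 cells was Usp39, at 29.0, 30.8, 27.1 and 30.6 CPM in M0+ONX and 32.5, 34.2, 33.3 and 31.0 CPM in M0 libraries (log2 change -0.16 ± 0.06, adjusted p = 0.0492). Its call was lost when any 1 of 17 libraries was left out (adjusted p up to 0.18), 5 of them of the M0+ONX or M0 groups. Bap1, a histone H2A deubiquitinase, rose in M1 (log2 change 0.22 ± 0.06, adjusted p = 0.00239) and M2 cells (log2 change 0.31 ± 0.06, adjusted p = 8.43e-05). Usp16, another H2A deubiquitinase, also rose in both, by 0.41 ± 0.07 and 0.31 ± 0.07 (adjusted p = 2.25e-05 and 0.000952), and Usp36, a nucleolar member, rose by 0.30 ± 0.09 and 0.28 ± 0.09 (adjusted p = 0.00575 and 0.0129). Usp16 shares 2.0% of its exonic bases with Cct8 on the opposite strand, which had 90957 counts in all against 22582 for Usp16. Cct8 rose by 0.31 ± 0.05 in M1 and 0.22 ± 0.05 in M2 cells (adjusted p = 4.63e-06 and 0.000521), and its part in the Usp16 counts was not tested. The Usp36 call in M2 cells was lost without M2 replicate 2 (adjusted p = 0.0544) or M2+ONX replicate 4 (adjusted p = 0.0607).

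Among 7 tested members with roles in DNA repair and the cell cycle, 3 rose and none fell in M1 cells with edgeR (1, Usp28, was lower at an unadjusted p under 0.05), 3 rose and 1 fell in M2 cells, and 1 rose and 1 fell in M0 cells. Over all genes tested, 16.6% rose and 27.7% fell in M1, 17.6% and 18.8% in M2, and 9.54% and 11.4% in M0 cells. Usp37, which counters cyclin A turnover, had 25.7, 23.6, 24.3 and 26.3 CPM in M1+ONX and 18.7, 11.9, 17.0 and 17.4 CPM in M1 libraries, with no overlap (log2 change 0.62 ± 0.10, adjusted p = 1.79e-05). Leaving out M1 replicate 2 gave 0.50 (adjusted p = 1.67e-05). Usp45, which acts on the ERCC1 repair nuclease, had 34.1, 40.7, 36.2 and 34.8 CPM in M1+ONX and 28.9, 16.3, 27.1 and 26.4 CPM in M1 libraries (log2 change 0.56 ± 0.11, adjusted p = 0.000208). Leaving out M1 replicate 2 gave 0.41 (adjusted p = 0.000101). Both also rose in M2 cells, Usp37 by 0.37 ± 0.10 and Usp45 by 0.47 ± 0.11 (adjusted p = 0.00505 and 0.00137). Usp47, linked to base excision repair, rose by 0.19 ± 0.05 in M1, 0.36 ± 0.05 in M2 and 0.19 ± 0.05 in M0 cells (adjusted p = 0.00352, 2.86e-06 and 0.00822). Usp1, the deubiquitinase of FANCD2 and PCNA, fell in M0 cells, with 31.6, 36.1, 30.1 and 35.1 CPM in M0+ONX and 41.1, 42.1, 43.5 and 44.7 CPM in M0 libraries (log2 change -0.37 ± 0.09, adjusted p = 0.00364). Usp28, which stabilizes MYC, fell in M2 cells (log2 change -0.31 ± 0.08, adjusted p = 0.00306).

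Of 17 tested members of NF-κB and innate signalling, 2 rose and 5 fell in M1 cells. In M2 cells 5 rose and 3 fell, and in M0 cells none rose and 3 fell. For M1 cells that is 11.8% higher and 29.4% lower, near the 16.6% and 27.7% of all genes tested. The shares of all genes were 17.6% and 18.8% in M2 and 9.54% and 11.4% in M0 cells. With edgeR 1 of the 17, Usp38, was higher in M0 cells at an unadjusted p under 0.05, and it was called there with voom, in the fit of those 8 libraries and without M1 replicate 2. Otud1, which strips K63 and K6 chains from innate signalling proteins, had 20.2, 22.7, 20.6 and 19.2 CPM in M1+ONX libraries, against 32.9, 34.7, 37.9 and 31.6 CPM in M1 libraries. No M1+ONX library reached the lowest M1 library, and Otud1 was 1.66-fold lower with ONX-0914 (log2 change -0.73 ± 0.08, adjusted p = 4.26e-08). Usp25 had 335, 376, 359.9 and 347 CPM in M1+ONX libraries, against 482, 399, 504 and 488 CPM in M1 libraries. Usp25 was 1.32-fold lower with ONX-0914 in M1 (log2 change -0.40 ± 0.06, adjusted p = 2.53e-06), 1.19-fold lower in M2 (log2 change -0.26 ± 0.06, adjusted p = 0.00133) and 1.18-fold lower in M0 cells (log2 change -0.24 ± 0.06, adjusted p = 0.00501), without overlap in any state.

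Cyld cuts K63 and linear chains and restrains NF-κB. It had 76.8, 84.3, 80.9 and 78.7 CPM in M1+ONX libraries and 116, 68.6, 107 and 110.2 CPM in M1 libraries. The groups overlapped through M1 replicate 2 alone, and the change was -0.33 ± 0.09 with it (adjusted p = 0.00536) and -0.47 without it (adjusted p = 8.30e-10). In a fit of these 8 libraries alone it was -0.24 (adjusted p = 0.231). Usp31, a member tied to NF-κB in human cells, fell in M1 (log2 change -0.40 ± 0.08, adjusted p = 0.000309) and M0 cells (log2 change -0.34 ± 0.08, adjusted p = 0.00469), and the M1 call was lost in the fit of 8 libraries (adjusted p = 0.0562). The fall of Usp31 in M1 cells was -0.50 without M1 replicate 2 (adjusted p = 4.48e-08). In M2 cells Usp31 changed by -0.19 ± 0.08 (adjusted p = 0.077), and by -0.19 without M1 replicate 2 (adjusted p = 0.0087). Usp15, which acts in TGF-β signalling, was called in M1 cells without M1 replicate 2, at -0.27 (adjusted p = 4.13e-05), against -0.16 ± 0.08 with it (adjusted p = 0.095). Otulin, which cuts linear chains made by the LUBAC ligase, changed by 0.00 ± 0.09 in M1 cells (adjusted p = 0.972). It fell in M2 cells (log2 change -0.24 ± 0.09, adjusted p = 0.0283), a call lost when any 1 of 5 M2+ONX or M2 libraries was left out, with adjusted p up to 0.0947. Otub1, an inhibitor of K63 chain synthesis, was called with ONX-0914 in no state, with changes of -0.03 ± 0.06 in M1, -0.10 ± 0.06 in M2 and -0.09 ± 0.06 in M0 cells. Otud7b, also called Cezanne and a brake on non-canonical NF-κB, rose in M1 (log2 change 0.27 ± 0.06, adjusted p = 0.000463) and M2 cells (log2 change 0.24 ± 0.06, adjusted p = 0.002). Usp38, a regulator of TBK1 turnover, rose by 0.39 ± 0.07 and 0.33 ± 0.07 in the same states (adjusted p = 9.35e-05 and 0.000678), and shares 20.5% of its exonic bases with an antisense gene that had 12 counts in all.

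Otud5 and Usp15 rose in M2 cells, by 0.26 ± 0.05 and 0.21 ± 0.08 (adjusted p = 0.000257 and 0.033), and the M1 effect of each was lower than its M2 effect, with M1 minus M2 differences of -0.32 ± 0.07 for Otud5 and -0.37 ± 0.11 for Usp15 (adjusted p = 0.00262 and 0.0219). Both of these differences were lost in the fit of those 16 libraries alone (adjusted p = 0.0713 and 0.215). That fit holds M1 replicate 2, and in the fit of all other libraries the Usp15 difference was -0.48 (adjusted p = 4.54e-06). Its M1 minus M0 difference was then -0.35 (adjusted p = 0.000237). Usp27x, an X-linked relative of Usp22, rose in M2 cells (log2 change 0.42 ± 0.15, adjusted p = 0.0346), with overlapping groups. The Usp15 call in M2 cells was lost with DESeq2 (adjusted p = 0.0752) and when any 1 of 5 libraries was left out (adjusted p up to 0.122), and that of Usp27x with DESeq2 (adjusted p = 0.0935), voom (adjusted p = 0.0594) and when any 1 of 5 libraries was left out (adjusted p up to 0.119), all of the M2+ONX or M2 groups. Otud3 fell in M0 cells (log2 change -0.28 ± 0.09, adjusted p = 0.0248), also with overlapping groups, a call lost when any 1 of 5 libraries was left out (adjusted p up to 0.113), all of the M0+ONX or M0 groups. Usp2 showed the largest fall of the members in M2 cells at a low level. It had 0.955, 0.904, 0.646 and 0.744 CPM in M2+ONX libraries and 1.42, 1.30, 1.47 and 1.59 CPM in M2 libraries, without overlap (log2 change -0.83 ± 0.23, adjusted p = 0.00493). Usp4, which acts on TRAF proteins, fell in M1 cells (log2 change -0.17 ± 0.05, adjusted p = 0.00967), and that call was lost in the fit of 8 libraries (adjusted p = 0.339) and with no filter (adjusted p = 0.0998).

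Endosomal, membrane and mitochondrial members held 4 that rose and 2 that fell in M1 cells of 15 tested, 5 and 3 in M2 cells, and 2 and 2 in M0 cells. Beside these stand 16.6% higher and 27.7% lower of all genes in M1, 17.6% and 18.8% in M2, and 9.54% and 11.4% in M0. Usp19, anchored in the endoplasmic reticulum, had 155, 159, 168 and 157 CPM in M2+ONX libraries, against 98.1, 102, 114 and 116 CPM in M2 libraries. It rose 1.34-fold in M1 (log2 change 0.42 ± 0.06, adjusted p = 2.84e-06), 1.49-fold in M2 (log2 change 0.57 ± 0.06, adjusted p = 2.45e-08) and 1.28-fold in M0 cells (log2 change 0.35 ± 0.06, adjusted p = 0.000118), without overlap. Usp20, which recycles membrane receptors, had 18.6, 19.3, 19.5 and 20.1 CPM in M2+ONX libraries and 12.7, 12.3, 12.8 and 12.1 CPM in M2 libraries. It rose 1.55-fold there (log2 change 0.63 ± 0.08, adjusted p = 7.47e-07), 1.35-fold in M1 (log2 change 0.43 ± 0.09, adjusted p = 0.000456) and 1.34-fold in M0 cells (log2 change 0.42 ± 0.08, adjusted p = 0.00054), and only its M1+ONX and M1 libraries overlapped among the 3 pairs.

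Usp12 and Usp46 are paralogs that work with the cofactors WDR48 and WDR20. Usp12 had 185, 185, 190.4 and 173 CPM in M1+ONX libraries, against 239, 234, 242 and 239 CPM in M1 libraries. Usp46 had 7.10, 7.80, 6.17 and 7.11 CPM in M1+ONX libraries, against 11.2, 9.55, 11.8 and 10.8 CPM in M1 libraries. Neither pair overlapped in any of the 3 states. Usp12 fell in each, with log2 changes of -0.38 ± 0.05 in M1, -0.22 ± 0.05 in M2 and -0.21 ± 0.05 in M0 cells (adjusted p = 3.82e-07, 0.000955 and 0.00288). For Usp46 the changes were -0.62 ± 0.10, -0.39 ± 0.09 and -0.29 ± 0.09 (adjusted p = 9.14e-06, 0.0012 and 0.0209). The Usp46 call in M0 cells was lost without M0 replicate 3 (adjusted p = 0.0546), M0+ONX replicate 1 (adjusted p = 0.0516), M0+ONX replicate 2 (adjusted p = 0.0502) or M0+ONX replicate 3 (adjusted p = 0.0823).

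Usp10 rose with ONX-0914 in M1 (log2 change 0.31 ± 0.06, adjusted p = 0.000241) and M2 cells (log2 change 0.17 ± 0.06, adjusted p = 0.0419), with overlapping groups in M2 cells. The M2 call was lost with DESeq2 (adjusted p = 0.112) and when any 1 of 7 libraries was left out (adjusted p up to 0.212), all of the M2+ONX or M2 groups. Stambp, the endosomal K63 protease AMSH, rose in M1 (log2 change 0.29 ± 0.06, adjusted p = 0.000332) and M2 cells (log2 change 0.21 ± 0.06, adjusted p = 0.00871). Usp35, a mitochondrial and mitotic member, rose in M2 cells alone of the 3 states, with 3.96, 3.87, 4.47 and 4.51 CPM in M2+ONX and 2.29, 2.50, 2.47 and 2.8 CPM in M2 libraries (log2 change 0.74 ± 0.16, adjusted p = 0.000542). Usp8 changed by 0.02 ± 0.05, -0.07 ± 0.05 and -0.02 ± 0.05, and Usp9x, a protease of several signalling proteins, by -0.04 ± 0.09, 0.13 ± 0.09 and -0.01 ± 0.09 in M1, M2 and M0 cells. Neither was called with all libraries, and without M1 replicate 2 Usp9x was called in M1 at -0.17 (adjusted p = 0.014) and in M2 cells at 0.13 (adjusted p = 0.0359).

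**Figure D3:**
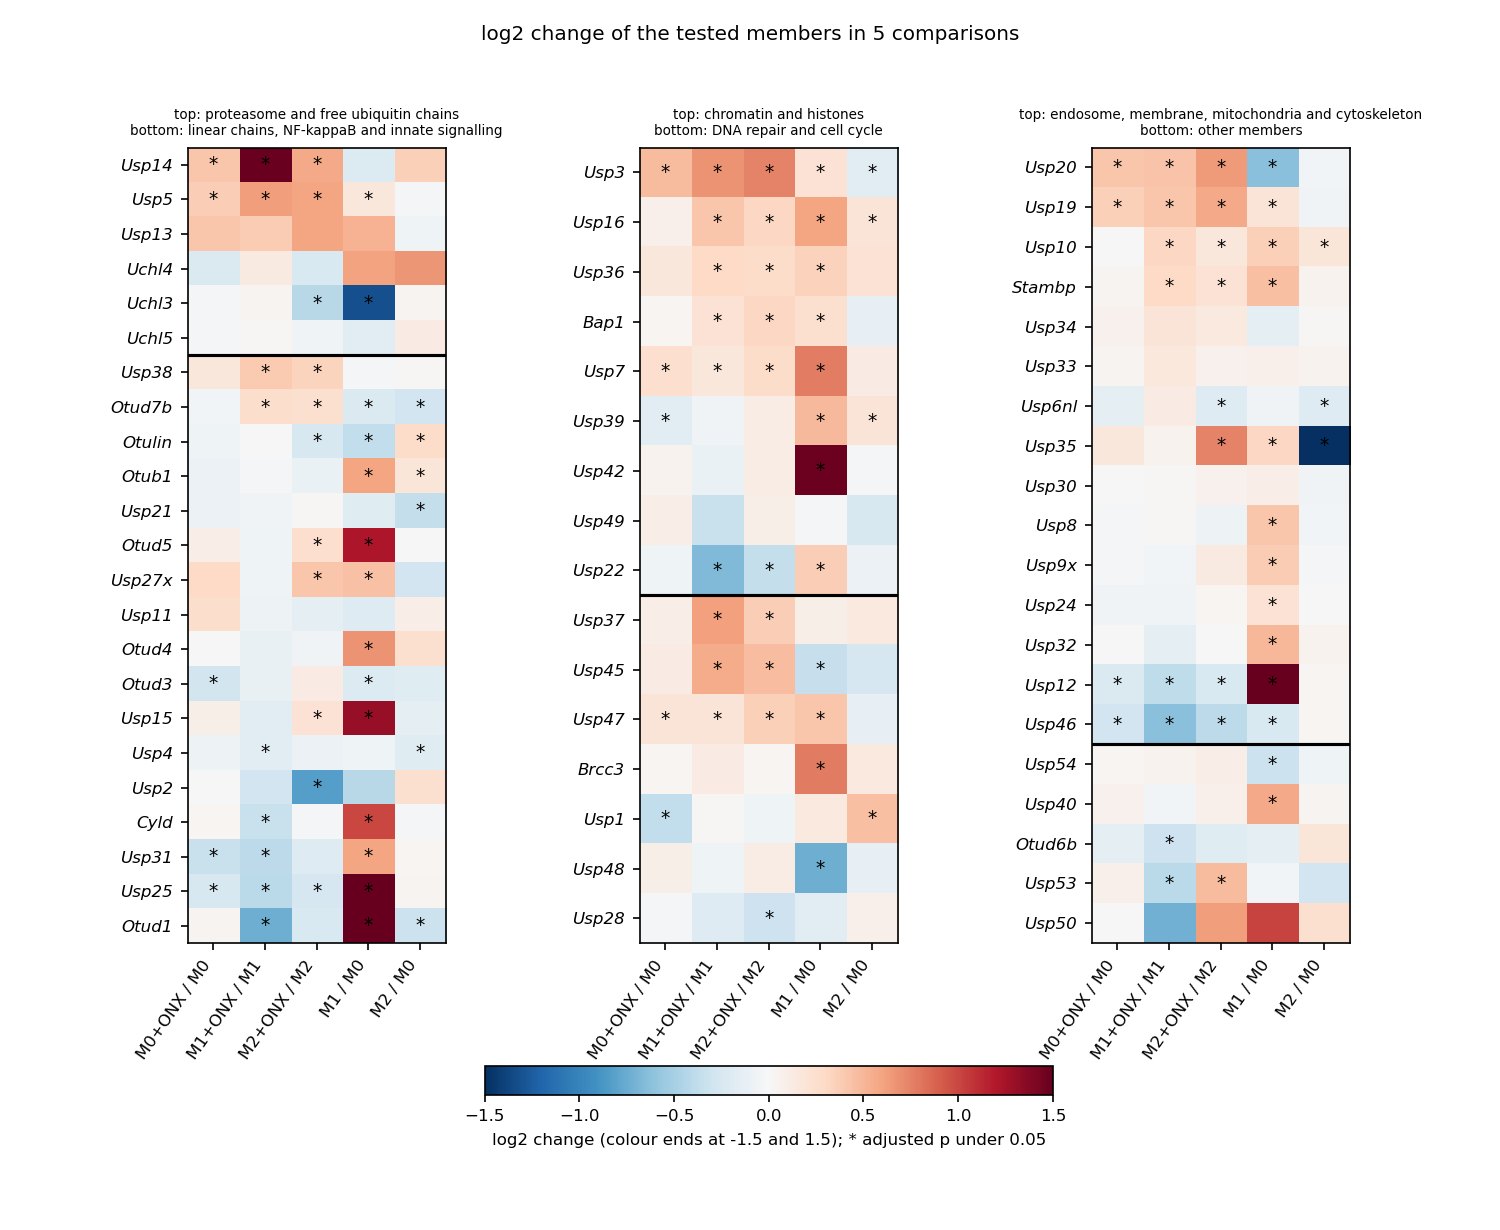
log2 change of the 59 tested members (rows, by role) in 5 comparisons (columns), red for higher and blue for lower; an asterisk marks adjusted p under 0.05. The colour scale ends at 1.5 in either direction, so Usp25, Usp12 and Otud1 in M1 against M0 cells and Usp35 in M2 against M0 cells lie beyond it.

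For 18 members the effect of ONX-0914 differed between states. Between M1 and M0 cells it differed for 12 members, beside 19.3% of all genes tested. It was more positive in M1 cells for 10 and more negative for 2, beside 6.9% and 12.4% of all genes. Between M2 and M0 cells it differed for 3, all more positive in M2 cells, beside 6.17% of all genes (3.44% more positive and 2.74% more negative). Between M1 and M2 cells it differed for 7, more positive in M1 cells for 2 and more negative for 5, beside 13.5% of all genes (3.8% and 9.68%). Leaving out M1 replicate 2 gave 19, 12 and 13 in that order. The first count was 7 without M0 replicate 4. The count for M2 and M0 cells was 1 without M0 replicate 1, M0+ONX replicate 3 or M2+ONX replicate 2, and 0 without M0+ONX replicate 1, M2 replicate 1 or M2 replicate 4. In those 3 edgeR fits, 14, 18 and 17 members had an unadjusted p under 0.05.

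Usp14 had the largest difference of the members, with a rise in M1 cells greater than in M0 cells by 1.07 ± 0.21 (adjusted p = 0.000399) and than in M2 cells by 0.91 ± 0.20 (adjusted p = 0.00266). Without M1 replicate 2 these were 0.84 (adjusted p = 1.13e-11) and 0.68 (adjusted p = 1.20e-09). Otud1 fell further in M1 than in M0 cells (-0.77 ± 0.12, adjusted p = 3.86e-05) and than in M2 cells (-0.50 ± 0.13, adjusted p = 0.00678), and the second call was lost in the fit of those 16 libraries alone (adjusted p = 0.0529). Usp22 fell further in M1 than in M0 cells (-0.59 ± 0.12, adjusted p = 0.000474). Usp37 rose further in M1 than in M0 cells (0.52 ± 0.15, adjusted p = 0.0113).

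Usp53, a protein found at tight junctions, was called in opposite directions. It had 8.0, 10.5, 9.25 and 8.36 CPM in M1+ONX against 12.3, 8.24, 13.7 and 13.2 CPM in M1 libraries, and 12.9, 14.0, 13.5 and 15.4 CPM in M2+ONX against 9.72, 10.9, 9.92 and 9.65 CPM in M2 libraries. The M1 groups overlapped through M1 replicate 2 alone, and the M2 groups did not. The difference of the effects was -0.87 ± 0.17 (adjusted p = 0.00075). Its fall in M1 cells (log2 change -0.40 ± 0.13, adjusted p = 0.0105) was lost without M1 replicate 3 (adjusted p = 0.0539) and in the fit of 8 libraries (adjusted p = 0.174). The fall was -0.54 (adjusted p = 9.46e-05) and the difference of the effects -1.01 (adjusted p = 2.95e-06) without M1 replicate 2. Usp35 differed between M1 and M2 cells (-0.69 ± 0.20, adjusted p = 0.0228), a call lost without M2 replicate 1 (adjusted p = 0.054), with voom (adjusted p = 0.0583) and in the fit of those 16 libraries alone (adjusted p = 0.0992).

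**Figure D4:**
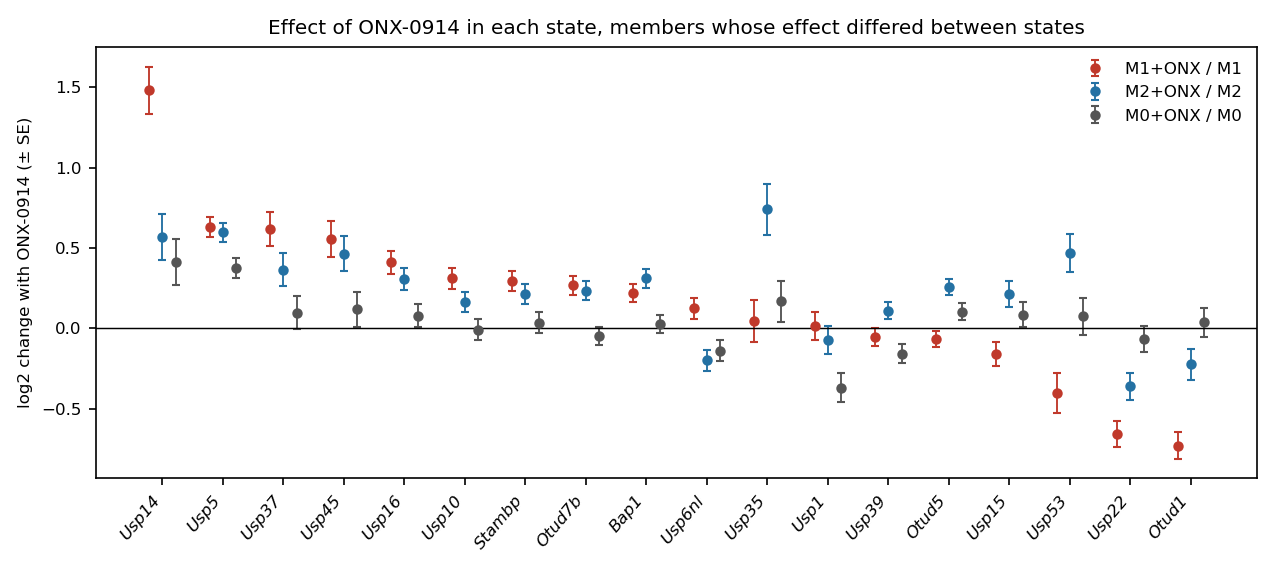
log2 change with ONX-0914 (± SE, edgeR) in M1, M2 and M0 cells for the 18 members whose effect differed between at least 1 pair of states. Usp14 rises by 1.48 in M1 cells, beside 0.57 in M2 and 0.41 in M0 cells, and Usp53 lies below 0 in M1 and above 0 in M2 cells.

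Polarization with LPS and IFN-γ was called for 39 members. In M1 against M0 cells 30 members were higher and 9 lower, beside 34.6% of all genes tested that were higher and 34.2% that were lower (68.8% in either direction). The counts were also 30 and 9 without M1 replicate 2. The members' median change was 0.22, beside -0.02 over all genes. By role, 8 of 9 chromatin members rose and none fell with edgeR, DESeq2 or voom, with 0 lower at an unadjusted p under 0.05 in edgeR, 9 of 17 NF-κB and innate members rose and 3 fell, and 9 of 15 endosomal and membrane members rose and 2 fell.

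The members with the largest rise were Usp25 and Usp12. Usp25 had 482, 399, 504 and 488 CPM in M1 libraries, against 92.1, 94.8, 91.3 and 105 CPM in M0 libraries. Usp12 had 239, 234, 242 and 239 CPM in M1 libraries, against 70.0, 71.5, 68.1 and 76.4 CPM in M0 libraries. The groups did not overlap in either, as held for 58.1% of all genes tested. Usp25 rose 4.89-fold (log2 change 2.29 ± 0.06, adjusted p = 2.07e-22) and Usp12 3.33-fold (log2 change 1.74 ± 0.05, adjusted p = 1.38e-21). Each was lower in M1+ONX than in M1 cells, and both stayed above M0 in every M1+ONX library.

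Otud1 had 32.9, 34.7, 37.9 and 31.6 CPM in M1 libraries, against 11.4, 11.4, 10.5 and 11.8 CPM in M0 libraries (log2 change 1.60 ± 0.09, adjusted p = 1.34e-15). Usp42, a deubiquitinase of p53 and histones, averaged 41.8 ± 1.86 CPM in M1 and 15.1 ± 1.15 CPM in M0 libraries (log2 change 1.47 ± 0.08, adjusted p = 1.73e-15). Neither pair of groups overlapped. Usp15 averaged 191 ± 29.9 CPM in M1 and 77.2 ± 2.53 CPM in M0 libraries (log2 change 1.31 ± 0.08, adjusted p = 1.69e-14). Otud5, which limits type I interferon production through TRAF3, averaged 175 ± 13.8 and 75.4 ± 3.76 CPM in the same order (log2 change 1.21 ± 0.05, adjusted p = 8.70e-18). Cyld averaged 101 ± 21.6 CPM in M1 and 50.3 ± 2.19 CPM in M0 libraries (log2 change 1.00 ± 0.09, adjusted p = 3.49e-10), and its rise without M1 replicate 2 was 1.14. Brcc3, which cuts K63 chains on NLRP3 and in BRCA1 complexes, rose by 0.78 ± 0.12 (adjusted p = 1.31e-06). Its level in M1 replicate 2 was 20.97 CPM, near the 19.2 to 20.4 CPM of M0 libraries. The other M1 libraries had 37.2 to 41.1 CPM. Usp7 rose by 0.77 ± 0.06 and Otub1 by 0.59 ± 0.06 (adjusted p = 2.31e-11 and 2.10e-09). Usp8 rose by 0.41 ± 0.05 and Usp9x by 0.38 ± 0.09 (adjusted p = 4.25e-08 and 0.000418). For Usp9x, M1 replicate 2 had 140.6 CPM, within the M0 range of 138.8 to 160.6 CPM. Without that library the rise of Usp9x was 0.51 (adjusted p = 8.51e-10). Usp22 (53.9 ± 8.47 CPM in M1 and 41.8 ± 1.47 CPM in M0 libraries) was also called higher, and by 0.31 without M1 replicate 2 (adjusted p = 0.000576). So were Bap1 (71.9 ± 8.19 and 60.7 ± 1.80 CPM in the same order) and Stambp (30.4 ± 2.35 and 22.2 ± 1.27 CPM). Usp4, at 153 ± 9.71 and 161 ± 5.06 CPM, was not called.

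Of the 9 members that fell in M1 cells, Uchl3 had the largest change. It had 3.76, 2.56, 3.64 and 3.97 CPM in M1 libraries, against 9.07, 8.14, 9.95 and 7.74 CPM in M0 libraries (log2 change -1.32 ± 0.15, adjusted p = 9.87e-09). Usp48, a protease of histone H2A and NF-κB p65, had 45.2, 48.9, 47.3 and 46.6 CPM in M1 libraries, against 75.6, 81.1, 72.5 and 83.0 CPM in M0 libraries (log2 change -0.73 ± 0.06, adjusted p = 2.01e-11). Neither pair overlapped. Usp20 averaged 8.40 ± 1.16 CPM in M1 and 12.9 ± 0.808 CPM in M0 libraries (log2 change -0.62 ± 0.09, adjusted p = 9.10e-07), and Otulin 30.5 ± 4.10 and 39.5 ± 3.44 CPM (log2 change -0.37 ± 0.09, adjusted p = 0.000672). Otud7b also fell, with a log2 change of -0.22 ± 0.06 (adjusted p = 0.00166). Usp45 was called lower, at 24.7 ± 5.66 CPM in M1 and 31.3 ± 3.12 CPM in M0 libraries, and by -0.19 without M1 replicate 2 (adjusted p = 0.0364). Usp54 was called lower, at 7.03 ± 0.52 and 8.80 ± 1.16 CPM, a call lost without M0 replicate 4 (adjusted p = 0.0654). Usp14 changed by -0.21 ± 0.15 (adjusted p = 0.218), and by 0.02 without M1 replicate 2 (adjusted p = 0.664). Without M1 replicate 1 it was -0.34 and called (adjusted p = 0.0441). Usp5 was called higher (log2 change 0.17 ± 0.06, adjusted p = 0.0187), and the call was lost without M0 replicate 2 (adjusted p = 0.0659) or M1 replicate 2 (adjusted p = 0.133) and with voom (adjusted p = 0.0827).

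**Figure D5:**
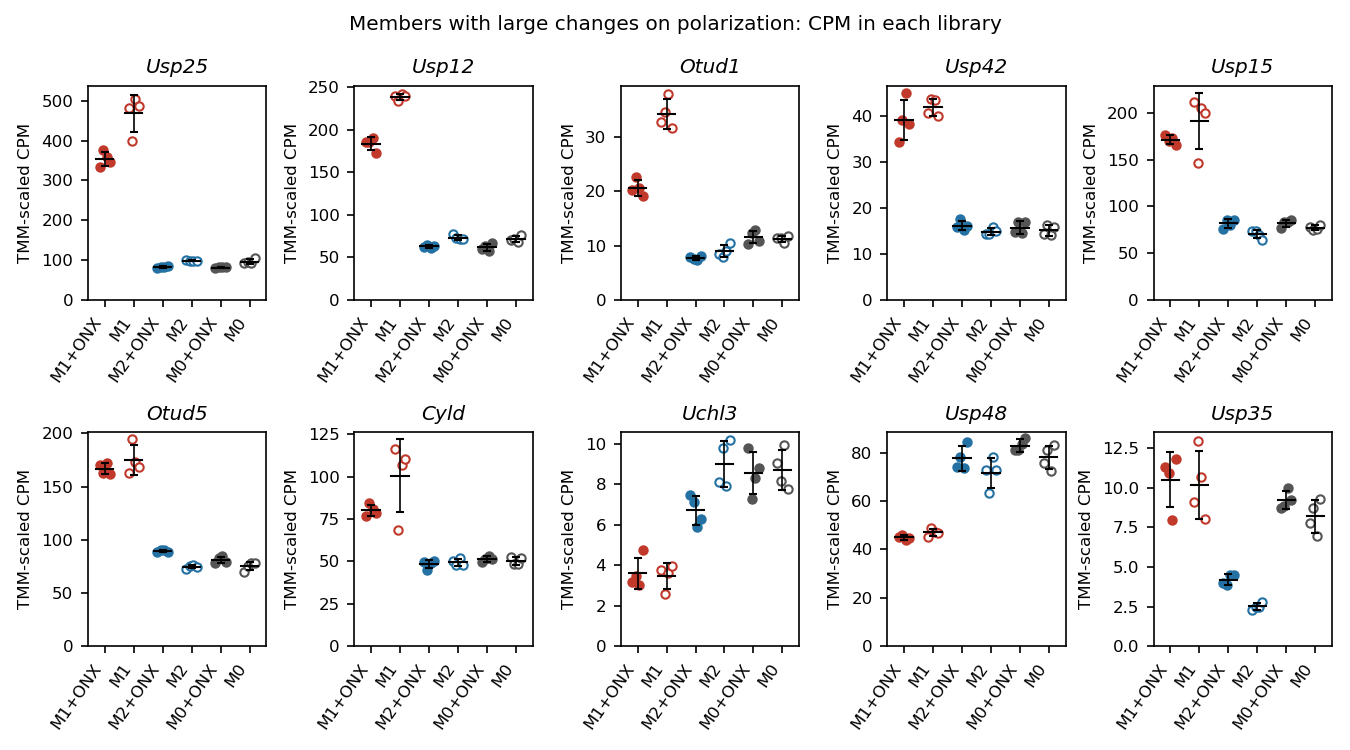
TMM-scaled CPM in each library for 10 members with large changes in M1 or M2 against M0 cells (filled points, with ONX-0914; open points, without; line and bar, mean ± SD, n = 4). Usp25, Usp12, Otud1, Usp42, Usp15, Otud5 and Cyld are higher in every M1 library than in any M0 library, Uchl3 and Usp48 lower, and Usp35 is low in M2 cells.

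IL-4 was called for 13 members. In M2 against M0 cells, 6 were higher and 7 lower, beside 18.7% of all genes tested that were higher and 17.5% that were lower (36.2% in either direction). Without M1 replicate 2, which belongs to neither group but enters the shared spread, 10 were higher and 12 lower. Usp35 had 2.29, 2.50, 2.47 and 2.8 CPM in M2 libraries, against 7.77, 8.73, 6.95 and 9.28 CPM in M0 libraries. Every M2 library was far below every M0 library (37.9% of all genes tested had groups that did not overlap), and Usp35 was 3.26-fold lower in M2 cells (log2 change -1.70 ± 0.15, adjusted p = 3.75e-10). With ONX-0914 as well, Usp35 averaged 4.20 ± 0.336 CPM in M2+ONX libraries.

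The other changes with IL-4 were smaller. Usp1 rose, with 62.2, 57.6, 54.8 and 59.6 CPM in M2 and 41.1, 42.1, 43.5 and 44.7 CPM in M0 libraries (log2 change 0.45 ± 0.09, adjusted p = 0.000165), and Otulin rose by 0.28 ± 0.09 (adjusted p = 0.012), a call lost without M0 replicate 2 (adjusted p = 0.0573). Otub1 rose by 0.18 ± 0.06 (adjusted p = 0.0214), lost without M0 replicate 4 (adjusted p = 0.0942) or M2 replicate 2 (adjusted p = 0.0814). Of 9 members called in both M1 and M2 against the same M0 libraries, Otud1, Otulin, Usp3 and Usp35 had calls in opposite directions. Of all genes tested, 68.8% were called in M1 and 36.2% in M2 against M0 cells. The shares called in both, or in opposite directions, were not counted over all genes, so no excess can be read from these members. Otud1 fell with IL-4 (log2 change -0.32 ± 0.09, adjusted p = 0.00612) and rose in M1 cells, and so did Usp3, at -0.17 ± 0.06 in M2 (adjusted p = 0.035) and 0.21 ± 0.06 in M1 cells (adjusted p = 0.00351). The M2 call of Usp3 was lost when any 1 of 5 libraries was left out (adjusted p up to 0.128), and the M1 call of Usp35 when any 1 of 4 libraries was left out (adjusted p up to 0.198), all of the groups compared. The others of the 9 were Otub1, Usp10, Usp16 and Usp39, higher in both, and Otud7b, lower in both. Usp10, a G3BP-bound protease of stress granules, changed by 0.19 ± 0.06, Usp16 by 0.19 ± 0.07 and Usp39, a splicing factor, by 0.19 ± 0.06 in M2 cells (adjusted p = 0.0236, 0.0375 and 0.00748). Cct8, which shares exonic bases with Usp16, rose by 0.33 ± 0.05 in the same comparison (adjusted p = 2.91e-06). The Usp10 and Usp16 calls in M2 cells were lost when any 1 of 3 libraries was left out (adjusted p up to 0.169) and any 1 of 7 libraries was left out (adjusted p up to 0.127), all of the M2 or M0 groups. Usp21, a protease of RIPK1 and STING, fell (log2 change -0.36 ± 0.10, adjusted p = 0.0041), as did Otud7b (log2 change -0.28 ± 0.06, adjusted p = 0.0003) and Usp4 (log2 change -0.18 ± 0.05, adjusted p = 0.00805). Usp6nl was also called lower, at 36.1 ± 2.60 CPM in M2 and 41.2 ± 1.18 CPM in M0 libraries. That call was lost when any 1 of 3 libraries was left out (adjusted p up to 0.0733). Usp14 was 104 ± 3.32 CPM in M2 and 81.3 ± 2.35 CPM in M0 libraries without overlap (log2 change 0.36 ± 0.14, adjusted p = 0.055). It was called without M1 replicate 1 (adjusted p = 0.0377), without M1 replicate 2 (adjusted p = 2.76e-08), and with voom (adjusted p = 1.78e-06).

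Other genes of the pathway were read from a pair of lists. The first held 26 genes of the JAMM, MINDY, Josephin, ZUFSP and remaining OTU families and related folds outside the symbol rule, several without known activity, of which 25 were tested. With ONX-0914, 12 rose and 4 fell in M1, 10 rose and 2 fell in M2, and 7 rose and 2 fell in M0 cells. Of all genes tested, 16.6% rose and 27.7% fell in M1, 17.6% and 18.8% in M2, and 9.54% and 11.4% in M0 cells. Psmd14, the deubiquitinase built into the proteasome's regulatory particle, rose by 1.5 ± 0.06 (log2) in M1, 1.34 ± 0.06 in M2 and 1.02 ± 0.06 in M0 cells (adjusted p = 4.79e-17, 3.68e-16 and 6.19e-13). Cops5, the catalytic subunit of the COP9 signalosome, rose by 1.05 ± 0.05, 1.01 ± 0.05 and 0.69 ± 0.05 (adjusted p = 1.00e-14, 2.87e-14 and 2.86e-10). Tnfaip3, the NF-κB brake A20, fell in each state, with log2 changes of -0.37 ± 0.05, -0.36 ± 0.05 and -0.24 ± 0.05 (adjusted p = 5.86e-07, 2.36e-06 and 0.00121). In M1 against M0 cells 8 rose and 11 fell. Tnfaip3 rose by 3.19 ± 0.05 and Zup1, a K63 protease, by 3.15 ± 0.14 (adjusted p = 1.10e-26 and 4.95e-17), and Mindy1, a K48 protease, changed by -1.82 ± 0.06 (adjusted p = 5.99e-20). In M2 against M0 cells 5 rose and 5 fell. Of all genes, 34.6% rose and 34.2% fell in M1 against M0 cells, and 18.7% and 17.5% in M2 against M0 cells.

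The second list held 31 partners of member deubiquitinases, of which 28 were tested. With ONX-0914, 9 rose and 6 fell in M1, 10 rose and 4 fell in M2, and 2 rose and 1 fell in M0 cells, beside 16.6% and 27.7% of all genes in M1, 17.6% and 18.8% in M2, and 9.54% and 11.4% in M0 cells. Adrm1, the proteasome receptor that anchors Uchl5, rose by 1.20 ± 0.07 in M1, 1.42 ± 0.07 in M2 and 1.19 ± 0.07 in M0 cells (adjusted p = 2.26e-13, 9.21e-15 and 1.54e-12), in the same libraries in which Uchl5 was not called. Atxn7l3, a partner of Usp22 in SAGA, fell in M1 (log2 change -0.34 ± 0.06, adjusted p = 3.05e-05) and M2 cells (log2 change -0.19 ± 0.06, adjusted p = 0.0156). Wdr48, the cofactor of Usp1, Usp12 and Usp46, changed by 0.01 ± 0.06, 0.14 ± 0.06 and -0.02 ± 0.06 and was not called (adjusted p = 0.955, 0.097 and 0.861). In M1 against M0 cells 18 partners rose and 5 fell, beside 34.6% and 34.2% of all genes, with Rnf31, the catalytic LUBAC ligase subunit bound by Otulin, at 2.54 ± 0.09 (adjusted p = 1.35e-19). In M2 against M0 cells 7 rose and 3 fell, beside 18.7% and 17.5% of all genes. Hgs, Asxl3 and Wdr20rt were not tested.

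No call was made in any of the 5 comparisons for Uchl4, Uchl5, Usp11, Usp13, Usp30, Usp33, Usp34, Usp49 and Usp50. Usp30, which counters mitophagy at the mitochondrial outer membrane, averaged 17.9 ± 1.77 CPM in M1+ONX, 17.6 ± 3.09 in M1, 16.6 ± 1.5 in M2+ONX, 15.9 ± 0.775 in M2, 16.6 ± 0.736 in M0+ONX and 16.4 ± 1.81 in M0 libraries. Usp33, a relative of Usp20, averaged 29.8 ± 2.89 CPM in M1+ONX, 26.8 ± 1.25 in M1, 27.5 ± 0.491 in M2+ONX, 26.3 ± 1.22 in M2, 26.1 ± 0.907 in M0+ONX and 25.4 ± 1.63 in M0 libraries. The group means of both lay close together.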

How the data were processed

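PolyA RNA of 24 pooled macrophage libraries was sequenced, and the authors deposited whole-number read counts per Ensembl gene. The submitters' processing notes name FastQC 0.11.9, cutadapt 2.8, Bowtie2 2.2.5, Picard and the build mm10; no source used here names the counting tool or its strand setting. Symbols came from GENCODE M21, which matched 54495 of 54532 identifiers.

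Counts were filtered with filterByExpr, which kept 14692 genes holding 99.927% of counts, scaled by TMM and fitted with edgeR 4.0.16 (R 4.3.3) quasi-likelihood tests, with 1 mean per group over all 24 libraries. P-values were adjusted over all tested genes by the Benjamini-Hochberg method at 0.05. CPM are TMM-scaled, and RPKM use union exon lengths. The test was checked on simulated data. Alternatives were DESeq2 1.42.0, limma 3.58.1 voom, other filters and scalings, the libraries of a comparison alone, a replicate block and leaving out each library. Members were named by rule: per comparison, up to 6 called members per direction with the largest change and at least 1 CPM in the higher group, up to 6 per difference of effects, a set of 18 chosen for their roles, and the 3 with the highest RPKM; further called members were named after their values were seen. Results of named members are not given for every comparison. The members and lists were chosen with earlier results of these data known. The labels call the replicates independent pools of mice.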

Additional observations from a re-analysis of the deposited data

Results flagged for a closer look

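In 252 groups of 4 libraries screened for a library far from the others of its group, 8 were found. Chance gives about 1 in 20 groups, more than were found, so these flags alone do not mark a library as unusual. The screen did not flag Usp14 in M1 replicate 2, at 33.4 CPM against 90.0, 81.2 and 76.8 CPM in the other M1 libraries. Otud7b had 52.3 CPM in M2+ONX replicate 2, and 48 to 48.3 CPM in the other libraries of that group. Usp1 had 34.2 CPM in M1 replicate 2, and 50.4 to 53.1 CPM in the other libraries of that group. Usp10 had 35.1 CPM in M2+ONX replicate 1, and 33 to 33.3 CPM in the other libraries of that group. Usp14 had 113 CPM in M0+ONX replicate 1, and 107 CPM in the other libraries of that group. Usp16 had 44.9 CPM in M1 replicate 2, and 57.3 to 57.9 CPM in the other libraries of that group. Usp21 had 14.4 CPM in M2 replicate 1, and 15.9 to 16.1 CPM in the other libraries of that group. Usp8 had 165 CPM in M1+ONX replicate 4, and 176 CPM in the other libraries of that group. Usp8 had 121 CPM in M2 replicate 4, and 125 CPM in the other libraries of that group.

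The effect of ONX-0914 differed between states at an adjusted p under 0.05 (edgeR) for 18 members, in 22 differences of log2 change. For the effect in M1 cells minus that in M0 cells these were Otud1 (-0.765, adjusted p = 3.86e-05), Otud7b (0.315, adjusted p = 0.00666), Stambp (0.258, adjusted p = 0.0403), Usp1 (0.383, adjusted p = 0.0328), Usp10 (0.318, adjusted p = 0.0133), Usp14 (1.07, adjusted p = 0.000399), Usp16 (0.333, adjusted p = 0.0182), Usp22 (-0.59, adjusted p = 0.000474), Usp37 (0.521, adjusted p = 0.0113), Usp45 (0.438, adjusted p = 0.0498), Usp5 (0.255, adjusted p = 0.0384) and Usp6nl (0.264, adjusted p = 0.0446). For the effect in M2 cells minus that in M0 cells these were Bap1 (0.284, adjusted p = 0.0316), Otud7b (0.282, adjusted p = 0.0357) and Usp39 (0.267, adjusted p = 0.0409). For the effect in M1 cells minus that in M2 cells these were Otud1 (-0.505, adjusted p = 0.00678), Otud5 (-0.324, adjusted p = 0.00262), Usp14 (0.913, adjusted p = 0.00266), Usp15 (-0.373, adjusted p = 0.0219), Usp35 (-0.693, adjusted p = 0.0228), Usp53 (-0.872, adjusted p = 0.00075) and Usp6nl (0.325, adjusted p = 0.019). Some of these calls were lost when 1 library was left out. Between M1 and M0 cells this held for Stambp with any 1 of 9 libraries left out (adjusted p up to 0.0925), Usp1 with any 1 of 6 (adjusted p up to 0.0782), Usp16 without M0 replicate 1 (adjusted p up to 0.0577), Usp45 with any 1 of 19 (adjusted p up to 0.109), Usp5 with any 1 of 12 (adjusted p up to 0.0862) and Usp6nl with any 1 of 12 (adjusted p up to 0.106). Between M2 and M0 cells this held for Bap1 with any 1 of 7 (adjusted p up to 0.0721), Otud7b with any 1 of 7 (adjusted p up to 0.0878) and Usp39 with any 1 of 13 (adjusted p up to 0.104). Between M1 and M2 cells this held for Usp15 without M1 replicate 1, M1 replicate 3 or M2 replicate 4 (adjusted p up to 0.0578), Usp35 without M2 replicate 1 (adjusted p up to 0.054) and Usp6nl without M1+ONX replicate 1 or M2 replicate 1 (adjusted p up to 0.0527).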

How the results depend on the processing

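No member changed direction while called under any alternative. Counts of called members moved by more than 1.5 times in these cases. With ONX-0914 in M0 cells, 4 were lower with no filter, and in M1 cells 5 were lower in the fit of the comparison's libraries alone. In M2 against M0 cells, 11 were higher with voom and 3 with at least 1 CPM in 4 libraries, and 11 were lower with DESeq2, 13 with at least 1 CPM and 12 in the libraries alone. The effect of ONX-0914 differed between M1 and M0 cells for 21 with voom. Between M2 and M0 cells it differed for 1 with DESeq2 size factors, 11 with voom, 9 in the libraries alone and 0 with no filter in edgeR, where 18 members had an unadjusted p under 0.05. Between M1 and M2 cells it differed for 13 with voom and 3 in the libraries alone.

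Leaving out each library in turn, higher and lower counts ran from 15 to 17 and 9 to 14 with ONX-0914 in M1, 18 to 23 and 6 to 11 in M2, and 6 to 8 and 4 to 7 in M0 cells. They ran from 29 to 31 and 6 to 11 in M1 against M0, and 4 to 10 and 5 to 12 in M2 against M0 cells. Differences of effect ran from 7 to 19, 0 to 12 and 5 to 13 for M1 against M0, M2 against M0 and M1 against M2.

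Over all genes tested, the deviations of same-numbered libraries from their group means correlated at -0.0518 to 0.0711. In 7 of 20 cases a library's deviations matched its own number best in the group it was compared with. Whether replicate numbers mark shared animals cannot be told from these values. With the replicate block, 16 and 10 were higher and lower with ONX-0914 in M1, 21 and 9 in M2, 7 and 6 in M0, 30 and 8 in M1 against M0, and 6 and 7 in M2 against M0 cells, and 13, 3 and 7 effects differed.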
